A study of Mus musculus with 11 samples.

Results

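The tRNA pool of mouse embryonic fibroblasts carrying wild-type METTL1 with WDR4 was set directly against that of fibroblasts carrying METTL1 labelled mutant with WDR4. The members of this comparison are 4 of the 11 libraries of the series, 2 for each construct, chosen by their labels alone. They are input libraries, made from small RNA that was treated with AlkB demethylases and was not cleaved, so they report how much of each tRNA was read and not where it is methylated. Each library gives a value for 301 tRNA entries, each called by its amino acid, its anticodon and a running number, and the entries were also added up into 54 anticodon sums and 22 amino acid sums (the 20 amino acids, selenocysteine and a suppressor-type tRNA). The empty vector libraries are not used.

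Both groups are fibroblasts of the line labelled wild type with SV40 T antigen, a viral protein that keeps cells dividing. Per the labels' protocols, stable clones carried the pBabe constructs under puromycin and G418 selection, and both drugs were left out before harvest. The protocols describe the wild-type construct only, the labels do not say which residue the mutant METTL1 changes, and they name no deletion of the cells' own Mettl1. The tables hold tRNA entries only, so neither the level of either METTL1 protein nor the fibroblast type could be checked. Nothing in the labels says that the 2 libraries of a construct were separate cultures, so what the p-values weigh is the spread among 4 libraries, and that spread may be technical.

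METTL1 is the methyltransferase that places N7-methylguanosine (m7G) on the variable loop of certain tRNAs, and WDR4 is its non-catalytic partner. The mark is known to help these tRNAs keep their fold and escape decay. Comparing 2 METTL1 constructs that share WDR4 asks which differences in tRNA abundance go with the METTL1 allele. If each construct was carried by a single clone, differences between clones could not be told apart from those between alleles. Transfer RNAs that carry the same amino acid but different anticodons are isoacceptors, and those that share an anticodon but differ elsewhere are isodecoders.

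Values are RPM, reads per 1000000 tRNA reads, so each difference is one in the share of tRNA reads, and more or less tRNA per cell would not show. Fewer cells and less RNA per cell cannot be told apart in such bulk samples. The implied totals were 10519149 and 13814411 reads in wild-type libraries 1 and 2, and 13634835 and 10032452 reads in mutant libraries 1 and 2. No entry was at 0 in any of these libraries. Log2 differences are wild type minus mutant on the log2(RPM + 1) scale, with limma's standard error (SE). P-values were adjusted over all rows of a level by the Benjamini-Hochberg (BH) method, and an adjusted p under 0.05 passed.

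By the share of reads involved, the mutant libraries stood further apart from each other than either stood from a wild-type library. To turn the tRNA profile of one wild-type library into that of the other, 2.45% of the reads would have to change entry. Between the 2 mutant libraries it was 8.57%, and between a wild-type and a mutant library it ranged from 6.31% to 7.65%. Summed by amino acid, the same shares were 2.15% between the wild-type libraries, 7.86% between the mutant libraries and 5.32% to 6.26% between constructs. Counting each entry equally the order was different: the median absolute log2 difference was 0.208 between the mutant libraries and 0.0847 between the wild-type libraries, against 0.213 to 0.245 between constructs. The mutant libraries differed by more than the wild-type libraries in 224 of the 301 entries. The mutant libraries stood furthest apart among abundant tRNAs. Over the 31 entries with a mean of 10000 RPM or more, which together hold 57.1% of the pool, the median distance between libraries on the log2 scale was 0.27 for the mutant and 0.06 for wild type.

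**Figure D1:**
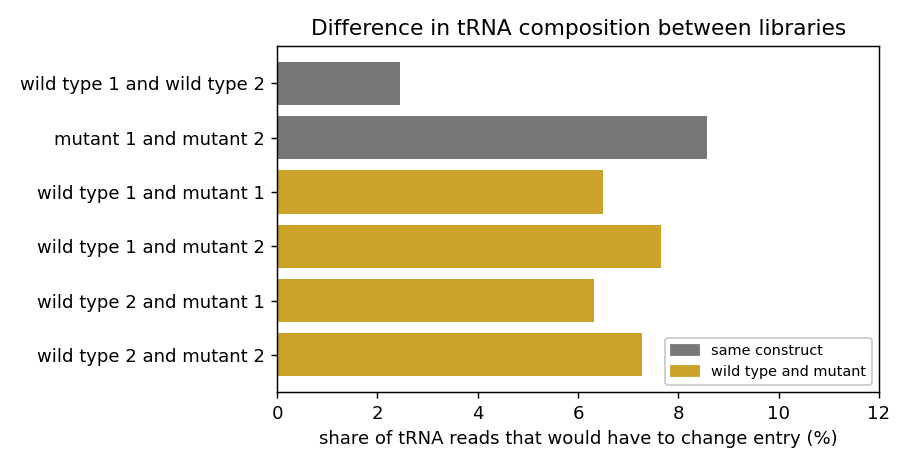
Share of tRNA reads, in percent, that would have to change entry to turn one library's profile into another's, for each pair of the 4 libraries. The pair of mutant libraries, at 8.57%, lies above all 4 pairs of a wild-type with a mutant library, at 6.31% to 7.65%, and the pair of wild-type libraries is at 2.45%.

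Histidine tRNA was the amino acid whose whole pool was higher with wild-type METTL1. The histidine sum stood at 23641 and 24959 RPM in the wild-type libraries and at 17805 and 16188 RPM in the mutant libraries. Both wild-type values lay above both mutant values, at 24300 ± 932 against 16996 ± 1144 RPM (SD, n = 2 libraries each), a fold of 1.43. The log2 difference was 0.52 (SE 0.12, limma BH-adjusted p = 0.00060). The call was lost without either wild-type library (limma BH-adjusted p = 0.13 and 0.29) and with libraries centred on the tRNAs taken to lack m7G (limma BH-adjusted p = 0.054). The log2 difference itself stayed between 0.40 and 0.59 in all alternatives.

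Nearly all histidine reads lay in 2 abundant isodecoders with the GTG anticodon, which reads both histidine codons. HisGTG6, which held 68.7% of the GTG sum, stood at 16389 and 17227 RPM with wild type and at 12418 and 10610 RPM with the mutant (log2 difference 0.55, SE 0.17, limma BH-adjusted p = 0.010). It was the 1 called entry among the 31 entries at 10000 RPM or more. HisGTG20 stood at 7146 and 7623 RPM against 5302 and 5512 RPM (0.45 on the log2 scale, limma BH-adjusted p = 0.012). The low entry HisGTG9 gave 63.4 and 55.4 against 53.9 and 38.7 RPM and did not pass (log2 difference 0.37, limma BH-adjusted p = 0.16). The entry HisATG3, at 42.6 and 54.1 against 30.7 and 27.2 RPM, was higher as well (log2 difference 0.71, SE 0.19, limma BH-adjusted p = 0.0027). No histidine entry overlapped between the groups. Wild type lay above in all 4, as it did in 130 of all 301 entries (43.2%). With libraries centred on the median log2 ratio of all entries, a choice made after the data were seen, neither of the abundant GTG entries passed (HisGTG6 0.44, limma BH-adjusted p = 0.072), HisATG3 did, and all 4 stayed above 0. Histidine tRNA is in the list of tRNAs taken to lack m7G in the variable loop.

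The other amino acid sum that passed was the suppressor-type one, lower with wild type, which is the single entry SupTTA1. Its anticodon pairs with the stop codon UAA, and the table gives no more on what RNA it is. It stood at 2.76 and 2.24 RPM against 4.47 and 5.08 RPM, from 29 and 31 implied reads against 61 and 51. The log2 difference was −0.73 (SE 0.12, limma BH-adjusted p = 3.0e-06). At the level of entries, where the fit lets low rows have a wider spread, its SE was 0.22 (limma BH-adjusted p = 0.0099). The call of the sum was lost without wild-type library 2 and at a pseudocount of 10 RPM, and that of the entry without either wild-type library.

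Thus 1 amino acid sum was higher (4.55% of the 22), 1 was lower (4.55%) and 20 did not pass, with 7 (31.8%) at an unadjusted p under 0.05. The groups did not overlap for 10 sums with wild type above (45.5%) and for 1 with wild type below (4.55%). Those 10 were histidine, glutamate, selenocysteine, cysteine, serine, threonine, lysine, phenylalanine, asparagine and glycine. The smallest p-values among the other 20 sums were those of glutamate, at 13312 and 13620 against 11635 and 10000 RPM (log2 difference 0.32, limma BH-adjusted p = 0.061), selenocysteine (0.30, limma BH-adjusted p = 0.068), cysteine (0.29, limma BH-adjusted p = 0.068) and serine (0.25, limma BH-adjusted p = 0.13). The selenocysteine sum is 1 entry, at 32.1 and 29.6 against 24.6 and 25.2 RPM.

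The 3 amino acids with the largest sums overlapped between the groups, each through one mutant library. Alanine stood at 282077 and 279919 RPM with wild type, and at 322048 and 267004 RPM in mutant libraries 1 and 2. Leucine stood at 115695 and 120805 RPM against 115213 and 148139 RPM. Glutamine stood at 110103 and 102943 RPM against 108328 and 131184 RPM. In alanine mutant library 1 lies above the other 3, and in leucine and glutamine mutant library 2 does. Tryptophan had the same form at a lower level, with 21158 and 21239 RPM against 24774 and 18648 RPM. For these sums the intervals of the log2 difference included 0. They ran from −0.29 to 0.17 for alanine, −0.38 to 0.09 for leucine, −0.40 to 0.07 for glutamine and −0.25 to 0.21 for tryptophan. The arginine sum gave an interval of −0.25 to 0.21 and the methionine sum −0.29 to 0.17.

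**Figure D2:**
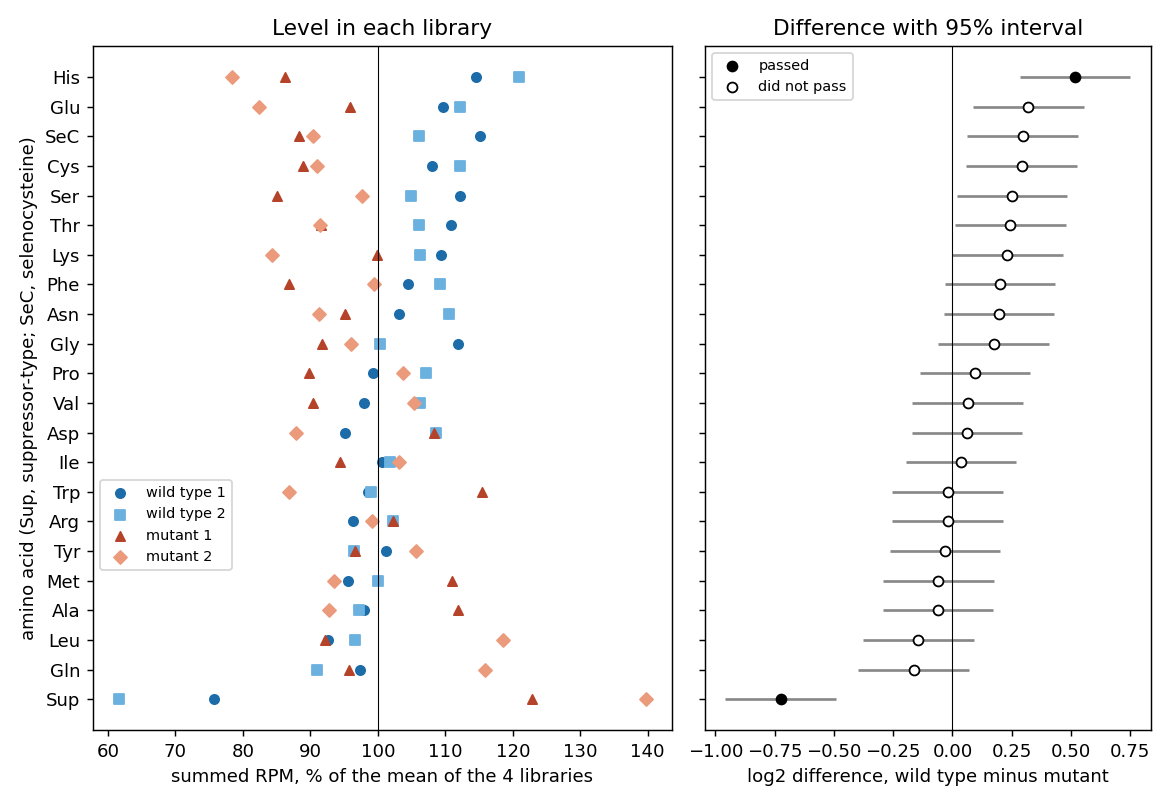
Left, summed RPM of each amino acid in each library, as a percentage of the mean of the 4 libraries. Right, the log2 difference of wild type minus mutant with its 95% interval, filled where the limma BH-adjusted p is under 0.05. Histidine and the suppressor-type entry passed, at 0.52 and −0.73, and in alanine, leucine and glutamine one mutant library lies above the other 3.

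Among the 54 anticodon sums 3 were higher (5.56%), 1 was lower (1.85%) and 50 did not pass, with 14 (25.9%) at an unadjusted p under 0.05. The groups did not overlap for 20 with wild type above (37.0%) and for 7 with wild type below (13.0%). The sums that passed were HisGTG, HisATG, ProGGG and SupTTA. HisGTG stood at 23599 and 24905 against 17774 and 16160 RPM (log2 difference 0.52, SE 0.13, limma BH-adjusted p = 0.0023). This call was lost without either wild-type library, without the most abundant entry of each sum, at a pseudocount of 10 RPM and with libraries centred on the tRNAs taken to lack m7G. ProGGG is the single entry ProGGG7, a proline tRNA name at 1.24 and 1.74 against 0.953 and 0.797 RPM, or 13 and 24 against 13 and 8 implied reads. It passed as a sum (log2 difference 0.40, limma BH-adjusted p = 0.039), where all rows share nearly the same SE, and not as an entry (limma BH-adjusted p = 0.25). The call of the sum held in 5 of 13 alternatives, with adjusted p from 0.0057 to 0.59 in limma.

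The sums with the next smallest p-values read lysine and glutamate codons on the higher side and alanine codons on the lower side. LysTTT, which reads AAA, stood at 3723 and 3611 against 3155 and 2599 RPM (log2 difference 0.36, limma BH-adjusted p = 0.081). GluCTC, which reads GAG, stood at 6010 and 6000 against 4892 and 4582 RPM (log2 difference 0.34, limma BH-adjusted p = 0.083). On the other side, AlaAGC stood at 19173 and 20089 against 24257 and 23823 RPM (log2 difference −0.29, limma BH-adjusted p = 0.11). All 3 sums had no overlap between the groups, and none passed. With libraries centred on the median log2 ratio of all entries AlaAGC was called lower (−0.41, limma BH-adjusted p = 0.027). The next on the lower side were ArgCCT, GlnTTG and ArgTCG, at log2 differences of −0.24, −0.21 and −0.16, with limma BH-adjusted p from 0.25 to 0.44.

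The balance between isoacceptors of an amino acid is a ratio within each library, so it does not depend on how the libraries are scaled. Some entries of different anticodons had nearly the same values in every library. ThrCGT11 stood at 572 and 523 against 646 and 637 RPM, and ThrTGT5 at 575 and 526 against 650 and 639 RPM. Such entries may share reads, so the sums and shares of different anticodons may not be separate measurements. In limma 0 of 46 isoacceptor shares were higher (0.0%) and 0 lower (0.0%), and 13 (28.3%) had an unadjusted p under 0.05. The groups did not overlap for 15 shares with wild type above (32.6%) and 12 with wild type below (26.1%). Threonine had the 2 smallest p-values. ThrAGT, whose A is read as inosine, made up 79.5% and 79.5% of threonine reads with wild type and 76.0% and 75.6% with the mutant (log2 difference 0.07, SE 0.01, limma BH-adjusted p = 0.093). ThrCGT made up 9.94% and 9.86% against 11.9% and 11.4% (−0.24, limma BH-adjusted p = 0.093), and ThrTGT 10.5% and 10.7% against 12.1% and 12.9% (−0.24, limma BH-adjusted p = 0.11). LysTTT held 9.88% and 9.86% of lysine reads against 9.16% and 8.94% (0.13, limma BH-adjusted p = 0.093). Replicates of both constructs lay within 1 percentage point of each other for these 4 shares. The other shares with the smallest p-values were ProCGG (0.05), LeuTAA (0.26) and GlnCTG (0.04) on the higher side. On the lower side they were ArgTCG (−0.14), ProTGG (−0.04) and GlnTTG (−0.04), all 6 at a limma BH-adjusted p of 0.093 to 0.13.

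At the level of entries 34 of 301 were higher with wild type (11.3%), 11 were lower (3.65%) and 256 did not pass, with 78 (25.9%) at an unadjusted p under 0.05. All 45 called entries had groups that did not overlap, as did many others. Over all entries 130 (43.2%) had both wild-type values above both mutant values and 46 (15.3%) had them below. The called entries lay in 28 anticodons, 21 with higher and 7 with lower entries, and in 0 anticodons both directions occurred. Of the 301 entries 189 had a log2 difference above 0. The median log2 difference of all entries was 0.10. Centring each library on the median log2 ratio of all entries shifted it by −0.11. It left 146 of the 301 entries above 0 and gave 16 higher and 17 lower entries. The share of calls on the higher side thus went from 75.6% to 48.5%. Those 16 were all among the 34, and all 11 lower entries were among the 17. Calls also depended on single libraries. Without wild-type library 1 there were 2 higher and 2 lower entries, and without wild-type library 2 there were 1 and 2. Against mutant library 2 alone 79 were higher and 37 lower, and against mutant library 1 alone 87 and 43, with 48 and 13 in the same direction in both. In each of these fits the lone library is assumed to vary as the pair of the other construct does, and the wild-type pair is the closer one.

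**Figure D3:**
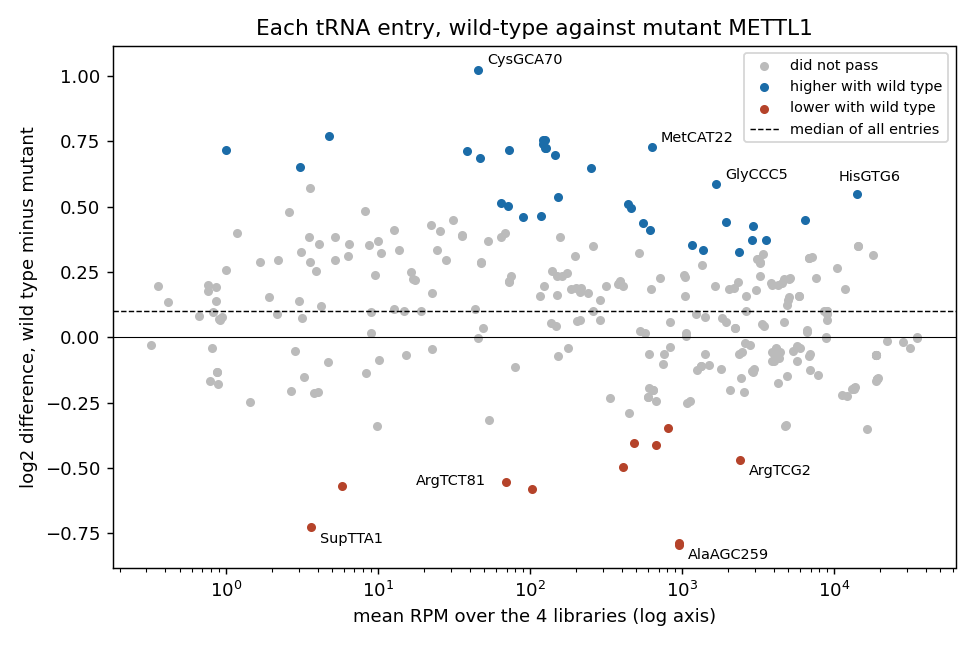
Log2 difference of wild type minus mutant against the mean RPM of the 4 libraries (log axis), 1 point per tRNA entry. The 34 higher entries reach up to HisGTG6, the 11 lower entries lie below 10000 RPM, and the dashed line is the median of all entries, 0.10.

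On the log2(RPM + 1) scale the largest rise with wild type was that of the cysteine entry CysGCA70. It stood at 58.8 and 62.8 RPM with wild type and at 23.7 and 36.3 RPM with the mutant (log2 difference 1.02, SE 0.18, limma BH-adjusted p = 2.4e-06). It is a rare isodecoder, at 0.318% and 0.328% of cysteine GCA reads with wild type and 0.156% and 0.233% with the mutant. CysGCA44 stood at 157 and 155 against 83.5 and 102 RPM (log2 difference 0.75, SE 0.16, limma BH-adjusted p = 0.00017). Together with CysGCA7, CysGCA25, CysGCA55 and CysGCA73 it forms a group of 5 entries, linked in a chain in which each lies within 5% of the RPM of at least 1 other in every library, and these may share reads and may not be separate measurements. The 6 called cysteine entries are these 5 and CysGCA70, while 34 of all 301 entries (11.3%) were called higher. All 28 CysGCA entries had a log2 difference above 0, from 0.06 to 1.02, against 189 of all 301 entries. When libraries were centred on the median log2 ratio of all entries, 25 of the 28 stayed above 0 and 6 were called. Over all 301 entries 146 were above 0 and 16 were called higher under that centring. Linked in the same way were CysGCA24, CysGCA76, CysGCA113 and CysGCA127, as were CysGCA46 with CysGCA131 and CysGCA37 with CysGCA98. The counts over the 28 may thus hold fewer separate measurements.

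Of the methionine entries, which the names do not divide into initiator and elongator, MetCAT22 stood at 767 and 810 against 529 and 427 RPM (log2 difference 0.73, SE 0.13, limma BH-adjusted p = 1.7e-06). It made up 3.90% and 3.93% of methionine reads with wild type and 2.31% and 2.22% with the mutant. MetCAT13 stood at 87.1 and 90.3 against 73.4 and 39.1 RPM (log2 difference 0.72, limma BH-adjusted p = 0.00096), a call lost against mutant library 1 alone (0.27, limma BH-adjusted p = 0.13). Only 4 of the 13 methionine entries had a log2 difference above 0, against 189 of all 301 entries. The methionine sum was 19700 and 20615 against 22870 and 19269 RPM.

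Among other entries with a mean above 100 RPM, ProTGG5, with an anticodon for proline codons, stood at 181 and 180 against 95.9 and 128 RPM (log2 difference 0.70, SE 0.16, limma BH-adjusted p = 0.00028). SerGCT8489 stood at 316 and 299 against 170 and 226 RPM (log2 difference 0.65, limma BH-adjusted p = 0.00024). The glycine entry GlyCCC5 stood at 2021 and 2002 against 1460 and 1230 RPM (0.59 on the log2 scale, limma BH-adjusted p = 7.4e-05), and held 23.7% and 27.0% of GlyCCC reads against 20.9% and 18.0%. All 3 calls were lost without either wild-type library.

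The remaining large rises were in scarce entries. AlaCGC21 stood at 58.2 and 56.5 against 42.7 and 29.1 RPM (log2 difference 0.69, limma BH-adjusted p = 0.0031). LysCTT117 stood at 6.94 and 5.65 against 3.23 and 3.29 RPM (0.77, limma BH-adjusted p = 0.0049). ThrAGT10 stood at 2.95 and 5.14 against 2.27 and 1.99 RPM (0.65, limma BH-adjusted p = 0.024). GlnTTG12 stood at 1.62 and 1.38 against 0.440 and 0.598 RPM (0.72, limma BH-adjusted p = 0.015), from 17 and 19 implied reads with wild type and 6 and 6 with the mutant. The ThrAGT10 and GlnTTG12 calls were lost under centring on the median log2 ratio of all entries. Log2 differences at this level are held down by the pseudocount: the mean RPM of GlnTTG12 differed 2.88-fold, against 2.03-fold for CysGCA70.

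**Figure D4:**
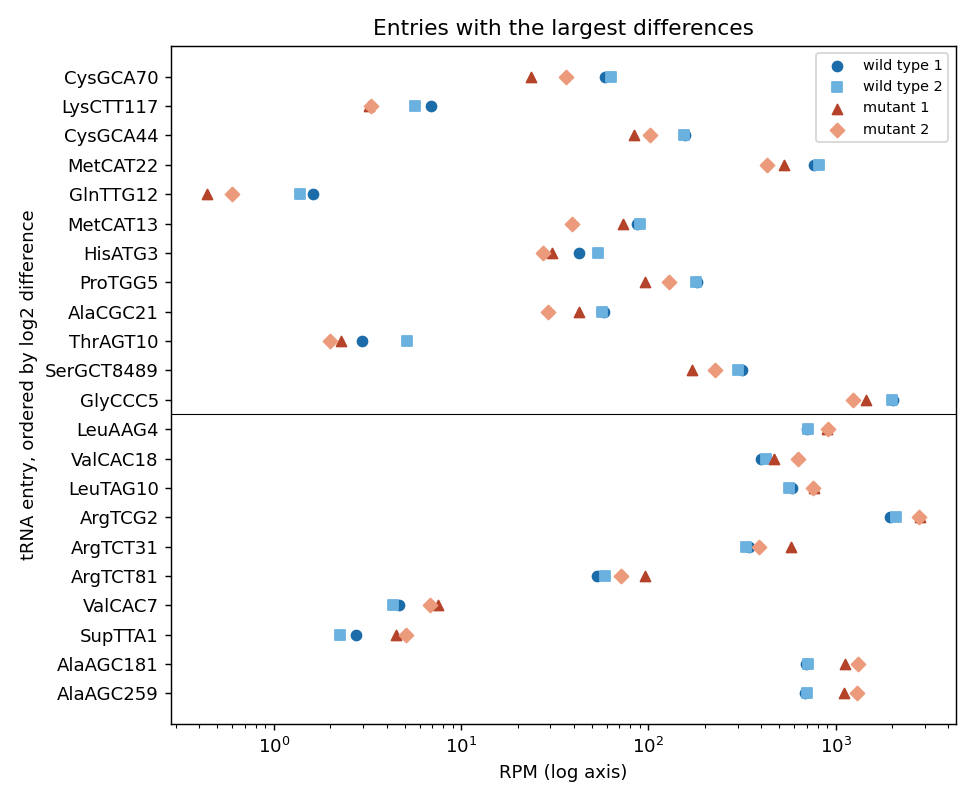
RPM in each library (log axis) of the 12 largest rises, above the line, and the 10 largest falls, below it, with at most 2 entries per anticodon. In each of the 22 entries both wild-type values lie on one side of both mutant values. The entries were picked from the 45 calls, all of which have this form. Over all 301 entries 130 have it with wild type above (43.2%) and 46 with wild type below (15.3%).

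On the log2(RPM + 1) scale the largest falls with wild type were those of AlaAGC259 and AlaAGC181, while by the ratio of mean RPM SupTTA1 fell further (0.523, against 0.575 and 0.578). AlaAGC259 stood at 684 and 699 RPM with wild type and at 1109 and 1297 RPM with the mutant (log2 difference −0.79, SE 0.12, limma BH-adjusted p = 4.2e-08). AlaAGC181 stood at 696 and 708 against 1121 and 1308 RPM, within 5% of AlaAGC259 in every library, so the pair may be 1 measurement. Each held 3.48% to 3.63% of the AlaAGC reads with wild type and 4.57% to 5.49% with the mutant. They and MetCAT22 were the named entries called in each alternative fit that held them. Another alanine entry, AlaAGC410, was lower at 82.3 and 83.0 against 129 and 120 RPM. By number of entries the anticodon was mixed, since 13 of its 25 had a log2 difference above 0, up to 0.57, against 189 of all 301. Those 13 all had a mean under 100 RPM. The abundant AlaAGC entries were lower with wild type, such as AlaAGC588 at 4112 and 4368 against 5420 and 5271 RPM, though it did not pass.

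Arginine held 3 of the 11 falls. These were 3 of its 20 entries, against 11 of all 301 (3.65%). The arginine sum overlapped between the groups, at a log2 difference of −0.02. ArgTCG2, whose anticodon pairs with CGA, stood at 1944 and 2098 against 2815 and 2784 RPM (−0.47 on the log2 scale, limma BH-adjusted p = 0.0022), and held 27.5% and 27.7% of ArgTCG reads against 33.3% and 35.0%. ArgTCT31, whose anticodon reads AGA, stood at 345 and 330 against 579 and 391 RPM (−0.49, limma BH-adjusted p = 0.0039). ArgTCT81 stood at 53.3 and 58.9 against 95.9 and 71.2 RPM (−0.55, limma BH-adjusted p = 0.015). All 3 arginine calls were lost without either wild-type library. Both ArgTCT calls were also lost against mutant library 2 alone, and that of ArgTCT81 with replicate number as a block. With 1 library left out log2 differences ran from −0.53 to −0.42 for ArgTCG2, −0.78 to −0.21 for ArgTCT31 and −0.77 to −0.34 for ArgTCT81. The most abundant ArgTCT entry, ArgTCT65, stood at 1898 and 1925 against 2625 and 1839 RPM and did not pass. The ArgTCT sum was 4318 and 4353 against 5627 and 4003 RPM, with mutant library 1 highest and mutant library 2 lowest.

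Of the other falls, LeuTAG10 stood at 581 and 566 against 769 and 757 RPM (log2 difference −0.41, limma BH-adjusted p = 0.012). LeuAAG4 stood at 706 and 711 against 899 and 905 RPM (−0.35, limma BH-adjusted p = 0.038). These leucine entries had close replicates in both constructs, unlike the abundant leucine tRNAs. The LeuTAG10 call held in 11 of 15 alternatives and the LeuAAG4 call in 8 of 15. ValCAC18 stood at 401 and 422 against 468 and 633 RPM (−0.40, limma BH-adjusted p = 0.021). Its call held in 10 of 15 alternatives. It was lost, among others, without mutant library 2 and without either wild-type library. The log2 difference of ValCAC18 ran from −0.62 to −0.19 over the libraries left out. ValCAC7 stood at 4.66 and 4.34 against 7.55 and 6.78 RPM (−0.57, limma BH-adjusted p = 0.049). That call held in 7 of 13 alternatives.

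None of the 10 most abundant entries passed. AlaTGC23, the most abundant, stood at 35199 and 35023 RPM with wild type and at 38107 and 32253 RPM with the mutant, a log2 difference of 0.0022 with an interval of −0.42 to 0.43. AlaCGC7, AlaTGC104, AlaCGC6 and AlaTGC84 likewise had mutant library 1 above and mutant library 2 below both wild-type values. LeuCAG8 stood at 17765 and 18612 against 17493 and 23498 RPM, and LeuCAA8, LeuCAA2 and LeuCAA5 had nearly the same values. Such entries may share reads across anticodons. GlnCTG7 stood at 23499 and 20950 against 20269 and 24712 RPM. These 10 entries together held 24.2% and 24.2% of the wild-type pools and 25.4% and 25.4% of the mutant pools.

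Within an anticodon the abundant and the scarce isodecoders did not always go together. Over all 301 entries 189 had a log2 difference above 0, and 146 did under centring on the median log2 ratio of all entries. Called higher were 34 of the 301 (11.3%), and 16 under that centring. In LysCTT all 22 entries had a log2 difference above 0 (0.09 to 0.77, 4 higher), and in LysTTT all 5 did (0.08 to 0.51, 2 higher). Under that centring 20 and 4 of them lay above 0, with 2 and 0 called higher. In AsnGTT all 7 lay above 0 in the main fit and 0 passed. In GluCTC 2 of 7 and in GluTTC 1 of 3 were higher, and all 10 lay above 0. With the same centring 8 of these 10 lay above 0 and 0 were called. In LeuCAA all 5 entries lay between −0.17 and −0.13 and 0 passed. In contrast, ThrAGT ran from −0.31 to 0.65, SerGCT from −0.25 to 0.65 and ValCAC from −0.57 to 0.43.

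**Figure D5:**
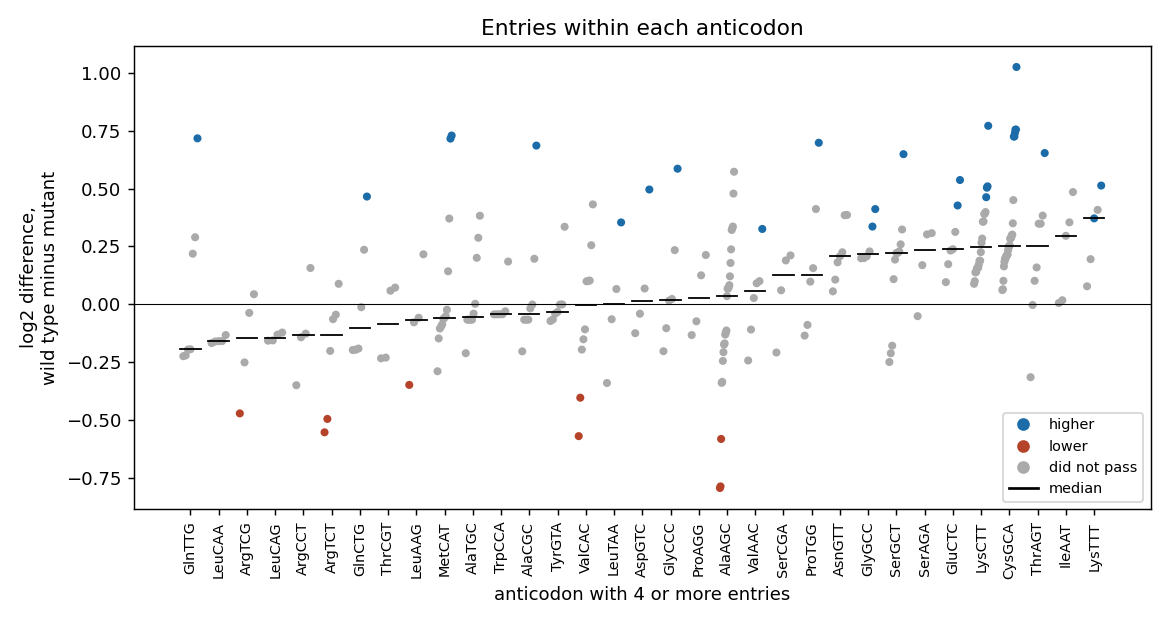
Log2 difference of wild type minus mutant for each entry of the anticodons with 4 or more entries, ordered by their median, with the median as a line. CysGCA and LysCTT entries all lie above 0, AlaAGC and MetCAT entries spread to both sides, and in no anticodon do higher and lower calls occur together.

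The lists of tRNAs were read against the 11.3% of all entries that were higher and the 3.65% that were lower. In the list of families taken to carry m7G 18 of 176 entries were higher (10.2%) and 7 lower (3.98%), with a median log2 difference of 0.12. In the list taken to lack it 15 of 105 were higher (14.3%) and 3 lower (2.86%), with a median of 0.08. Centred on the median log2 ratio of all entries, the list taken to carry m7G had 12 higher and 12 lower (median 0.01) and the list taken to lack it 4 and 4 (median −0.03). The excess of higher calls in both lists and the order of the lists by share higher thus depended on the centring. In the list taken to carry m7G, the near-identical CysGCA entries called higher may be 1 measurement. So may the pair AlaAGC259 and AlaAGC181, called lower. Of the 43 leucine, serine and selenocysteine entries, which have a long variable arm, 3 were higher and 2 lower (median −0.05), and of the 20 entries in neither list 1 was higher and 1 lower. The 21 entries with the anticodons that receive queuosine, GTG, GTT, GTC and GTA, had 3 higher and 0 lower (median 0.11). The higher ones were HisGTG6, HisGTG20 and AspGTC21.

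By the first anticodon base, which pairs with the third codon base, the entries with G had the highest median of the 4 sets. Of 73 such entries 61 had a log2 difference above 0, against 189 of all 301 entries. Of the 73, 13 were higher (17.8%), 0 were lower, and the median was 0.22 against 0.10 for all entries. Under centring on the median log2 ratio of all entries 52 of the 73 lay above 0, against 146 of all 301, with 8 higher and 0 lower. The 13 were 6 CysGCA, 2 HisGTG, 2 GlyGCC and 1 each of PheGAA, SerGCT and AspGTC, and 5 of the cysteine entries may be 1 measurement. These tRNAs made up 14.1% and 14.1% of the wild-type pools and 12.4% and 12.5% of the mutant pools. Entries with A had 3 higher and 4 lower of 64 (median 0.07), those with C 11 and 2 of 103 (0.06), and those with T 7 and 5 of 61 (0.03). Under the same centring the counts were 1 higher and 8 lower with A (median −0.04), 6 and 3 with C (−0.05), and 1 and 6 with T (−0.08). No test of the difference between these lists was run.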

How the data were processed

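Small RNA input libraries were compared, 2 with wild-type METTL1 and 2 with mutant METTL1, both with WDR4. The submitters' processing notes name the tools Bowtie, Trim Galore and bedtools and the build mm10, without versions. For reads matching several tRNA genes, the sources used here name no rule. In 2 tables the authors deposited RPM, the reads of an entry per 1000000 tRNA reads of the library, and these were joined on the entry name. The RPM values are whole multiples of 1 read (within 0.01 reads), which gave the implied totals. No count test was run, since the check set for using recovered reads asked for more low values than were present. Where a read was counted in several entries, these are not independent, and the totals exceed the reads sequenced.

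RPM, anticodon sums and amino acid sums were transformed to log2(RPM + 1), and isoacceptor shares to log2. Each level was fitted in limma 3.58.1 (R 4.3.3) on the 4 libraries without covariates or a filter, with a variance trend for entries only, and BH-adjusted over all rows of the level. Intervals are 95%. An exact permutation test of 2 against 2 libraries could not pass 0.05. The fits were tested on simulated data. There the 4 libraries of a row had the same spread and the rows were independent. That test therefore does not cover the unequal spreads of the constructs or shared reads. The members, the lists in use (from background knowledge of tRNA) and the tests were chosen with earlier results of these data known. Named were the 12 largest called differences per direction with at most 2 per anticodon, the 10 most abundant entries, the largest entry of each called sum, and called sums and shares filled to 5 per direction by p. Other entries were named after their values were seen. Tried alternatives were the pseudocount, minimum RPM, centrings, the variance trend, each library left out and replicate number as a block. Others were merged near-identical entries of the same anticodon, sums without their largest entry and mean log2 values in place of sums.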

Additional observations from a re-analysis of the deposited data

How the results depend on the processing

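The number of calls depended on the libraries used and on the centring. Leaving out 1 library gave 1 to 87 entries higher and 2 to 43 lower against 34 and 11 with all 4, 0 to 12 anticodon sums higher and 0 to 4 lower against 3 and 1, and 0 to 8 amino acid sums higher and 0 to 3 lower against 1 and 1. The low ends came from leaving out a wild-type library, where the lone wild-type library is assumed to vary as the mutant pair does, and the high ends from leaving out a mutant library, where the lone mutant library is assumed to vary as the closer wild-type pair does. With libraries centred on the median log2 of the tRNAs taken to lack m7G, 14 entries, 1 anticodon sum and 0 amino acid sums were higher. Centring on the median log2 ratio, added after seeing the data, gave 16 entries higher and 17 lower over all entries, 17 higher and 16 lower over the tRNAs taken to lack m7G, and 2 anticodon sums lower either way, SupTTA and AlaAGC. A pseudocount of 10 RPM gave 0 anticodon sums in either direction and 0 amino acid sums lower. A minimum mean of 10 RPM, which leaves out SupTTA1, gave 0 sums lower at both levels, and a minimum of 100 RPM gave 0 lower and 1 anticodon sum higher. Without the most abundant entry of each sum, 0 anticodon sums were higher or lower, 0 amino acid sums were lower, and 1 isoacceptor share was called in each direction. A variance trend gave 1 isoacceptor share higher. The mean log2 of the entries in place of the sum, also added after seeing the data, gave 6 anticodon sums and 7 amino acid sums higher. The cause of these changes was not tested, apart from the entry left out by the minimum.

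Wild type and mutant share the replicate numbers 1 and 2, but their deviations from the group means did not go together (Pearson −0.05, Spearman −0.08 across 301 entries) and the labels do not say that a number pairs libraries. With the replicate block 20 entries were higher and 5 lower, all among the 34 and 11, and the counts of sums stayed at 3 and 1 and at 1 and 1.

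No called result changed direction. Some values that were not called changed sign, among them GlnTTG, at −0.21 in the main fit, and glutamine, at −0.16. With libraries centred on the median log2 of all entries the values that changed sign were AlaCGC6 (0.0036), AlaCGC7 (0.020) and GlnCTG7 (0.0088). AlaTGC23 went to −0.10 with the centring on the tRNAs taken to lack m7G, and to −0.11 (all entries) and −0.11 (tRNAs taken to lack m7G) on the median log2 ratio. With mean log2 values in place of sums GlnTTG was 0.056, glutamine 0.038 and methionine 0.080. Leaving out 1 library gave −0.15 to 0.11 for AlaCGC6, −0.12 to 0.12 for AlaCGC7, −0.18 to 0.096 for AlaTGC104, −0.12 to 0.12 for AlaTGC23, −0.23 to 0.10 for AlaTGC84 and −0.16 to 0.13 for GlnCTG7. It gave −0.37 to 0.051 for LeuCAA2, −0.37 to 0.053 for LeuCAA5, −0.37 to 0.053 for LeuCAA8 and −0.37 to 0.056 for LeuCAG8. The sums gave −0.33 to 0.037 for leucine, −0.20 to 0.074 for alanine and −0.18 to 0.065 for methionine. Entries under 1 RPM, 13 to 19 per library, rest on few reads. The planned count tests on recovered reads were not run, since the check set for them asked for more low values than a library held.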
